A study of Mus musculus with 6 samples.

Results

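The MYC and MAX network was examined through 10 genes, named from their known family membership and found in the count table by gene symbol: Myc, Mycl, Mycn, Max, Mnt, Mxd1, Mxd3, Mxd4, Mxi1 and Mlx. All 10 were among the 54446 genes of the table, and 9 of them were among the 14956 genes kept for testing, which needed 10 or more counts in 2 or more libraries. Mycn had too few counts. RNA was sequenced from TRAMP-C2 cells, a C57BL/6 male mouse prostate cancer cell line that comes from a TRAMP tumor, a model in which a probasin promoter drives a viral T antigen. The cells received no drug (control), 2 µM oxaliplatin or 2 µM cisplatin for 24 h, with 2 poly(A) libraries per group and total counts of 21345312 to 24041767. Both drug comparisons share the control libraries. All groups were of 1 line, and the labels do not say whether replicates came from separate cultures, so that p values measure the spread between these libraries only.

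Proteins of this network bind DNA as dimers, through a basic helix-loop-helix leucine zipper, at a short palindrome called the E-box (CACGTG). MAX is the common partner. With MYC, MYCN or MYCL it activates transcription, and genes for ribosome production are among the classic targets, whereas with MNT or a protein of the MXD group (MXD1, MXI1, MXD3 and MXD4) it recruits SIN3 corepressors to the same sites. MLX pairs with MNT, MXD1 and MXD4 and with the glucose-responsive factors MLXIP and MLXIPL. In prostate cancer MYC is often overexpressed.

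The E-box was also looked for in the members' own promoters, since the network is known to act on some of its own genes. This search was added after values were seen. In the RefSeq promoter table (build GRCm38.p6, 250 bases before to 50 after each start), 9 of the 10 members had 11 windows, and Myc was not matched. The letters CACGTG, which read the same on both strands, occurred in windows of 4 of these 9 genes (44.4%), namely Mxd4, Max, Mnt and Mlx, and in 8.09% of the 27025 genes of the table. They were not found in the windows of Mycl, Mycn, Mxd1, Mxd3 or Mxi1. Such a match describes letters in the window and not binding. The promoter table was not limited to genes expressed in these cells, and a share over expressed genes alone was not computed. The 4 windows that hold the E-box are printed from 250 bases before to 10 bases after the RefSeq start, in the direction of the gene, with the E-box in capitals. They lie at chr5:34187701-34187960 (minus strand), chr12:76962239-76962498 (minus strand), chr11:74830674-74830933 (plus strand) and chr11:101087040-101087299 (plus strand). The E-box begins 219 bases before the start in Mxd4, 123 before it in Mnt and 40 before it in Mlx, and in Max it spans the start itself, from 3 bases before to 3 after. This RefSeq start of Max lies upstream of the gene as annotated in GENCODE.
Mxd4: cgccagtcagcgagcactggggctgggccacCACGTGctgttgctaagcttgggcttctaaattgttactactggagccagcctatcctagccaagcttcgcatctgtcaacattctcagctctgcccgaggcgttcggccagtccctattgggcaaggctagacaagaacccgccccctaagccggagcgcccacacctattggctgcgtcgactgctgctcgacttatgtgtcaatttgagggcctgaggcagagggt
Max: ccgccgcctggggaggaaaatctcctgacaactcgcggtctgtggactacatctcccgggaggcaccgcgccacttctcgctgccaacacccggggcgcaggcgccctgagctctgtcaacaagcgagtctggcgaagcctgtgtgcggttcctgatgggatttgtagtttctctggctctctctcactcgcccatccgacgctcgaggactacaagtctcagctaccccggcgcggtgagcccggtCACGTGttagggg
Mnt: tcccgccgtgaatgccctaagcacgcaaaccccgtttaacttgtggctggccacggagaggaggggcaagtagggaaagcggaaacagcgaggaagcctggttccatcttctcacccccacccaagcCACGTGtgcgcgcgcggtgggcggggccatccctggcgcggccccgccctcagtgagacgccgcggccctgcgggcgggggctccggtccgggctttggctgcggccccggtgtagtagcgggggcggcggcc
Mlx: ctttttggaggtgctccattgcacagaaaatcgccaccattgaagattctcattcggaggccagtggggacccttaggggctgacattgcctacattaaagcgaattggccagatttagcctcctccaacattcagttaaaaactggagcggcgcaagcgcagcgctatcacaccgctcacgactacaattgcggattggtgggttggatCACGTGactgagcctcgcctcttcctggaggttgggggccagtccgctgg

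Per length, the 3 most abundant members in control cells were Mlx, Max and Myc. On the scale of normalised counts (counts divided by the size factor of the library) per kb of annotated exon, Mlx had 417 ± 12.2 (SD, n = 2), Max 402 ± 5.11 and Myc 381 ± 16.4, and neighbours in this order differed by about as much as their spread. The MXD group and MNT followed, with 267 ± 1.296 for Mxd4, 233 ± 4.95 for Mxd3, 222 ± 13.1 for Mnt, 109 ± 2.94 for Mxi1 and 23.5 ± 0.658 for Mxd1. Mxd3 and Mnt did not differ beyond their spread. Mycl had 2.38 ± 0.0898 and Mycn 1.07 ± 0.178, so that Myc was the only abundant gene of the MYC family in these cells. After cisplatin Myc was at the top of the order, with 758 ± 30.5, as it was after oxaliplatin, with 576 ± 19.7. All exons of a gene counted toward its length, so a gene with long but little used exons is placed too low.

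The cells were epithelial only in part by their markers. Cdh1 had 369 to 573 normalised counts, Krt8 95.1 to 135 and Krt18 115 to 170, whereas Epcam had at most 1.97, Krt5 was at 0, and the mesenchymal gene Vim had 52900 to 68050. Of the markers of other cells, Ptprc, Pecam1 and Cdh5 had at most 7.84, Adgre1 was at 0 in all libraries, and Cd68, which many cell types express at a low level, averaged 38.05 ± 7.83 (SD) without drug, 31.6 ± 1.27 with oxaliplatin and 49.6 ± 0.623 with cisplatin. The part of such cells in the results was not tested. In such bulk samples a change in the number of cells of a type and a change in RNA per cell cannot be told apart.

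**Figure D1:**
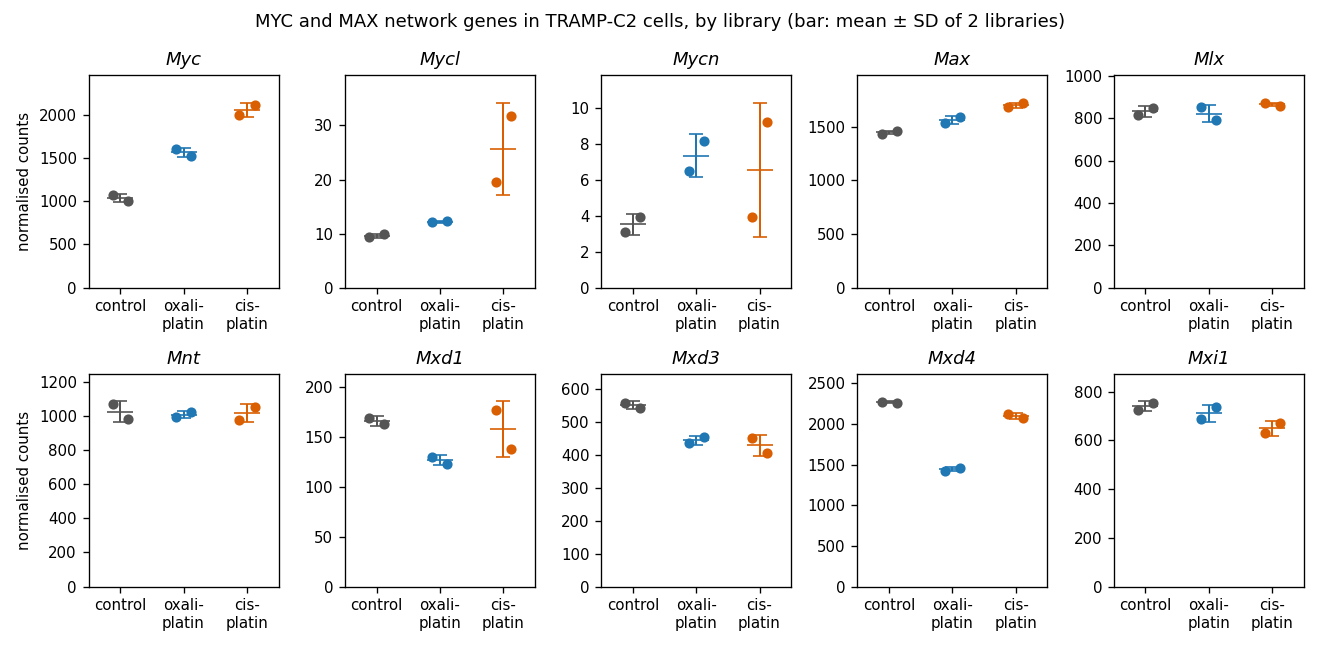
Normalised counts (vertical axis, from 0) of the 10 network genes in the 2 libraries of each group (points), with the mean and SD. Myc climbed from control to oxaliplatin to cisplatin, Mxd4 was low in the 2 oxaliplatin libraries alone, and Mycl and Mycn stayed under 32 normalised counts.

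With 2 libraries per group, libraries that do not overlap between groups were common over the whole transcriptome, at 64.7% of genes tested after oxaliplatin (32.1% higher and 32.6% lower), 69.3% after cisplatin (34.6% and 34.7%) and 68% between the drugs (33.5% and 34.5%). Of the 9 members tested, 3 lay higher and 3 lower without overlap after oxaliplatin, 4 higher and 3 lower after cisplatin, and 1 higher and 6 lower after oxaliplatin than after cisplatin. A lack of overlap alone is thus no sign of a change, and each member was read by its test.

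Myc itself rose after both drugs. Myc (ENSMUSG00000022346, chromosome 15, 61985391 to 61990374) had 1068 and 1005 normalised counts in the 2 control libraries, 1602 and 1527 in the oxaliplatin libraries, and 2000 and 2117 in the cisplatin libraries. The 3 groups did not overlap, with control lowest and cisplatin highest. Its level rose 1.51-fold after oxaliplatin (log2 fold change 0.60 ± 0.08 (SE), DESeq2 adjusted p = 5.75e-12) and 1.99-fold after cisplatin (0.99 ± 0.08, DESeq2 adjusted p = 2.37e-33). Between the drugs at the same dose it was lower after oxaliplatin, by a log2 value of -0.40 ± 0.08 (DESeq2 adjusted p = 5.02e-06). Of 10732 genes averaging 100 normalised counts or more, 191 had a higher log2 fold change than Myc after oxaliplatin and 68 after cisplatin.

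The paralogs were scarce. Mycl (ENSMUSG00000028654, chromosome 4, 122995652 to 123002485), known from small cell lung cancer, had 9.34 and 9.85 normalised counts in control, 12.1 and 12.3 in oxaliplatin, and 19.6 and 31.7 in cisplatin libraries. The groups did not overlap, but the cisplatin libraries lay far apart. Its log2 fold change was 1.42 ± 0.70 after cisplatin, DESeq2 gave it no adjusted p at such counts, and edgeR's quasi-likelihood test put it past the threshold (edgeR adjusted p = 0.0211, the lowest among the alternatives, which reached 0.127). Mycn (ENSMUSG00000037169, chromosome 12, 12936093 to 12941914), the neuroblastoma gene, had 3 and 4 counts in control, 7 and 8 in oxaliplatin, and 4 and 9 in cisplatin libraries. It was not tested, and its libraries overlapped between cisplatin and both other groups. At this depth 3 counts, the number that a count of 0 still allows, are 2.79 to 3.11 normalised counts, so that Mycn lay close to the limit.

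Max, the partner that both arms of the network need, moved little. Max (ENSMUSG00000059436, chromosome 12, 76937269 to 76962201) had 1434 and 1460 normalised counts in control, 1539 and 1590 in oxaliplatin, and 1685 and 1719 in cisplatin libraries. The order of the groups was that of Myc, again without overlap. The rise after cisplatin was 1.18-fold (log2 fold change 0.23 ± 0.07, DESeq2 adjusted p = 0.00557), while the log2 value after oxaliplatin, 0.11 ± 0.07, missed the threshold (DESeq2 adjusted p = 0.277). So did the difference between the drugs, -0.12 ± 0.07 (DESeq2 adjusted p = 0.219). The call after cisplatin was lost when any control or cisplatin library was left out, with DESeq2 adjusted p values of 0.072 to 0.162.

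Among the repressors, Mxd4 fell after oxaliplatin. Mxd4 (ENSMUSG00000037235, chromosome 5, 34173883 to 34187720), whose promoter window with the E-box is printed above, had 2276 and 2260 normalised counts in control, 1426 and 1461 in oxaliplatin, and 2122 and 2075 in cisplatin libraries. The oxaliplatin libraries stood apart from the other 4. Its log2 fold change was -0.65 ± 0.07 after oxaliplatin (DESeq2 adjusted p = 6.27e-21), a fall to 0.637 times the control level. After cisplatin it was -0.11 ± 0.06 (95% interval -0.24 to 0.01) and did not pass (DESeq2 adjusted p = 0.185), though it did with total-count scaling (DESeq2 adjusted p = 0.0436) and in edgeR (edgeR adjusted p = 0.0321). Its adjusted p ranged from 0.0321 to 0.574 over all alternatives. The drugs themselves differed, with Mxd4 lower after oxaliplatin by -0.54 ± 0.07 (DESeq2 adjusted p = 2.27e-14). Of the same 10732 genes, 141 had a lower log2 fold change than Mxd4 after oxaliplatin.

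The antisense gene Gm42846 shares 514 bp of exon with Mxd4 on the other strand, and whether counting used strand is not stated, so reads there cannot be told apart. Gm42846 had 97.3 and 49.96 normalised counts in control, 55.5 and 36.8 in oxaliplatin, and 155 and 162 in cisplatin libraries. The part of these reads in the fall of Mxd4 was not tested.

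Mxd3, a repressor that is expressed mainly in dividing cells, was lower after both drugs. Mxd3 (ENSMUSG00000021485, chromosome 13, 55325168 to 55329823) had 560.3 and 544 normalised counts in control, 436 and 455 in oxaliplatin, and 452 and 408 in cisplatin libraries. Control lay above both drug groups, and these overlapped each other. The fall passed after cisplatin (log2 fold change -0.36 ± 0.13, DESeq2 adjusted p = 0.0196) and not after oxaliplatin (-0.31 ± 0.13, DESeq2 adjusted p = 0.0606), and the difference between the drugs was 0.05 ± 0.13 (95% interval -0.20 to 0.31, DESeq2 adjusted p = 0.826). The cisplatin call was lost without any 1 of the 6 libraries (DESeq2 adjusted p 0.0781 to 0.318). Conversely edgeR called Mxd3 lower after oxaliplatin as well (edgeR adjusted p = 0.00784), as did DESeq2 with total-count scaling (adjusted p = 0.0478), within a range of 0.00784 to 0.42 over all alternatives. Mxd3 shares 105 bp of exon with Prelid1 on the other strand, which had 8565 to 9748 normalised counts.

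No change in Mxd1, Mxi1, Mnt or Mlx passed the DESeq2 threshold in any comparison. Mxd1 (ENSMUSG00000001156, chromosome 6, 86647042 to 86669161), which rises when many cell types differentiate, had 169 and 163 normalised counts in control, 130.0 and 123 in oxaliplatin, and 177 and 138 in cisplatin libraries. Its 2 oxaliplatin libraries were the lowest, and the log2 fold change after oxaliplatin was -0.39 ± 0.23 (DESeq2 adjusted p = 0.237). Mxi1 (ENSMUSG00000025025, chromosome 19, 53310518 to 53375810) had 726 and 755 in control, 686 and 736 in oxaliplatin, and 629 and 673 in cisplatin libraries, with a log2 fold change of -0.19 ± 0.11 after cisplatin (DESeq2 adjusted p = 0.189, and 0.0366 in edgeR to 0.623 over the alternatives). The cisplatin libraries of Mxi1 lay under those of both other groups.

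Mnt (ENSMUSG00000000282, chromosome 11, 74830920 to 74845725), the most broadly expressed antagonist of MYC, had 1068 and 982 normalised counts in control, 994 and 1021 in oxaliplatin, and 978 and 1053 in cisplatin libraries. All groups overlapped, and the 95% intervals of its log2 fold change were -0.21 to 0.16 after oxaliplatin and -0.20 to 0.17 after cisplatin. Mlx (ENSMUSG00000017801, chromosome 11, 101087277 to 101092207) had 816 and 850.2 in control, 852 and 793 in oxaliplatin, and 872 and 860 in cisplatin libraries, with intervals of -0.21 to 0.17 and -0.14 to 0.25. Mlx shares 385 bp of exon with Psmc3ip, and Mxi1 194 bp with Gm10197, in both cases on the other strand.

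**Figure D2:**
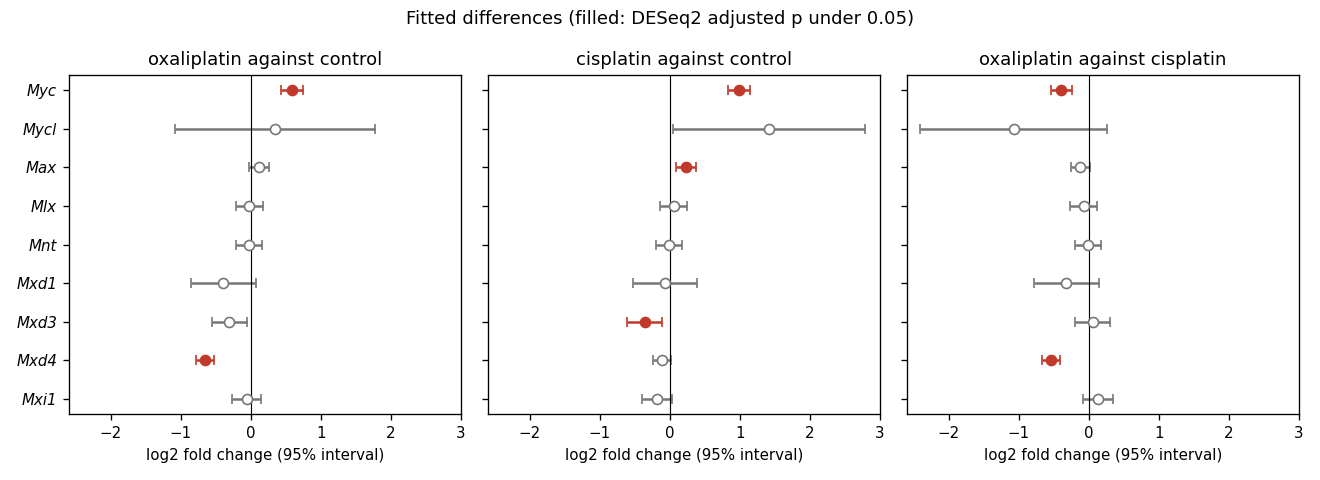
Log2 fold changes (horizontal axis) with 95% intervals of the 9 network genes tested, in the 3 comparisons; filled points passed a DESeq2 adjusted p of 0.05. Myc passed in all 3 panels and Mxd4 in both that involve oxaliplatin, and the interval of Mycl is the widest.

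In all, DESeq2 called 2 of the 9 members tested after oxaliplatin (Myc higher, Mxd4 lower), where 20.2% of all genes tested were called, 10.7% higher and 9.5% lower. After cisplatin it called 3 of 9 (Myc and Max higher, Mxd3 lower), where the background was 28.1%. Between the drugs it called 2 of 9, Myc and Mxd4, both lower after oxaliplatin, where 19.9% of all genes were called and 11.3% were lower. The members' shares of 22.2%, 33.3% and 22.2% are near the background and no result about the network as a whole. The results concern its single members. The median log2 fold change of the 9 members was -0.02 after oxaliplatin and -0.01 after cisplatin, where the median of all genes tested was -0.0029 and -0.00083. With total-count scaling the members' calls became 1 higher and 2 lower after oxaliplatin and 2 higher and 2 lower after cisplatin, and the calls over all genes after cisplatin turned from 2355 higher and 1848 lower to 1824 higher and 2376 lower. Between the drugs those calls turned from 1289 higher and 1688 lower to 1622 higher and 1364 lower.

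Since MYC and the repressors compete for MAX, their transcripts were also set against each other within each library, as ratios of normalised counts per kb of exon. Myc over Mxd4 was 1.46 and 1.39 in control, 3.51 and 3.26 in oxaliplatin, and 2.94 and 3.19 in cisplatin libraries. Both drugs thus lay above control, and they overlapped each other. Against the sum of Mnt, Mxd1, Mxd3, Mxd4 and Mxi1, Myc stood at 0.454 and 0.439 in control, 0.86 and 0.791 in oxaliplatin, and 0.957 and 1.02 in cisplatin libraries, with no overlap. That sum alone was 866 and 842 in control, 686 and 710 in oxaliplatin, and 769 and 762 in cisplatin libraries, so it was lowest after oxaliplatin. Myc over Max was 0.986 and 0.911, then 1.38 and 1.27, then 1.57 and 1.63 in the same order of groups. Myc is the numerator of every ratio, so its rise after both drugs, given above, enters each of them. The ratios were not tested and are given as a description of transcripts, not of proteins. Their size depends on the exon lengths: in normalised counts not divided by length, Mxd4 averaged 2268 and Myc 1036 in control cells. The exon lengths also set the weight of each repressor in the sum.

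Other parts of the network were taken from a list of 44 partners and regulators, and 43 had enough counts. The list was chosen with earlier results of these data known. After oxaliplatin 9 rose and 2 fell, and after cisplatin 16 rose and 7 fell, with median log2 fold changes of 0.06 and 0.11. Against backgrounds of 20.2% and 28.1% these were 25.6% and 53.5% of the list. Between the drugs 4 were higher and 9 lower after oxaliplatin (30.2%), where 19.9% of all genes were called. The background set beside this and every other list includes genes with few counts, which are harder to call. Of the 14956 genes tested, 10732 averaged 100 normalised counts or more, as did all tested genes of this list. The share called among genes of like counts was not computed. Total-count scaling changed the splits to 12 higher and 9 lower after cisplatin and to 8 higher and 6 lower between the drugs. Leaving out any 1 library left 5 to 7 calls after oxaliplatin, and after cisplatin 11 were left without control replicate 2, 12 without cisplatin replicate 1 and 14 without cisplatin replicate 2.

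Of the MLX arm, Txnip, a target that reports the activity of MLXIP with MLX, had 2643 and 2732 normalised counts in control, 3830 and 3841 in oxaliplatin, and 5615 and 5517 in cisplatin libraries. Txnip thus followed the order of Myc, with log2 fold changes of 0.51 ± 0.05 (DESeq2 adjusted p = 5.77e-22) and 1.05 ± 0.05 (DESeq2 adjusted p = 3.28e-95), and -0.54 ± 0.05 between the drugs (DESeq2 adjusted p = 3.41e-26). Txnip shares 606 bp of exon with the antisense gene Gm15441 on the other strand, and the part of such reads in its rise was not tested. Arrdc4, the other target on the list, did not pass (0.38 ± 0.23 and 0.42 ± 0.23, DESeq2 adjusted p = 0.234 and 0.150). Nor did Mlxip (-0.17 ± 0.10 after oxaliplatin, DESeq2 adjusted p = 0.240) or Mga (-0.13 ± 0.08 after cisplatin, DESeq2 adjusted p = 0.272), a large MAX partner. Mlxipl had 0 counts in 4 libraries and 1 in the other 2.

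Fubp1, whose protein binds an element upstream of the Myc promoter and promotes its transcription, went in opposite directions. It had 3172 and 3385 normalised counts in control, 2573 and 2588 in oxaliplatin, and 4956 and 5005 in cisplatin libraries. The groups did not overlap, and the log2 fold changes were -0.35 ± 0.06 after oxaliplatin (DESeq2 adjusted p = 1.74e-08), 0.60 ± 0.05 after cisplatin (DESeq2 adjusted p = 2.10e-26) and -0.95 ± 0.06 between the drugs (DESeq2 adjusted p = 3.02e-63). Cnbp, another activator of Myc transcription, rose by 0.16 ± 0.03 and 0.20 ± 0.03 (DESeq2 adjusted p = 3.70e-05 and 2.76e-08). Pvt1, the noncoding gene next to Myc (named here after its values were seen), had a log2 fold change of 0.19 ± 0.17 after oxaliplatin and 0.20 ± 0.17 after cisplatin and did not pass (DESeq2 adjusted p = 0.475 and 0.387).

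Among 13 genes that act on the stability of the MYC protein, 4 rose and 0 fell after oxaliplatin, and 3 rose and 3 fell after cisplatin, where 20.2% and 28.1% of all genes were called. Pim1, a kinase that stabilises MYC, rose from 375 ± 20.1 to 669 ± 4.32 normalised counts after cisplatin (0.83 ± 0.12, DESeq2 adjusted p = 4.03e-10) and had 446 ± 5.33 after oxaliplatin (0.25 ± 0.13, DESeq2 adjusted p = 0.142). Set, an inhibitor of the phosphatase that marks MYC for decay, rose by 0.31 ± 0.04 and 0.30 ± 0.04 (DESeq2 adjusted p = 2.91e-13 and 1.35e-12). Of 13 coactivators, 1 rose after oxaliplatin (Ruvbl2), and 6 rose and 2 fell after cisplatin, against the same 20.2% and 28.1% of all genes. The coactivators that fell were Trrap and Ep400 (Ruvbl2, Trrap and Ep400 were named after their values were seen).

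Ribosome production is the best known program downstream of MYC, and its genes were followed beside the network. This list was chosen with earlier results of these data known, so its counts describe the group and are no independent test of a rise. Of 70 genes for ribosome biogenesis and RNA polymerase I, all tested, DESeq2 called 57 higher and 1 lower after oxaliplatin and 54 higher and 1 lower after cisplatin, against 10.7% and 15.7% of all genes called higher. The median log2 fold changes were 0.39 after oxaliplatin and 0.35 after cisplatin, under those of Myc (0.60 and 0.99). Between the drugs 12 of these genes were higher and 5 lower after oxaliplatin, a share of 24.3% that is near the 19.9% of all genes, and the median difference was 0.04. The count between the drugs was unstable, with 29 calls in edgeR (20 higher, 9 lower), 5 without oxaliplatin replicate 1 or cisplatin replicate 1, and 7 without oxaliplatin replicate 2 or cisplatin replicate 2.

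By role, 20 of 21 genes for the small subunit, 19 of 20 for the large subunit and 13 of 14 for nucleolar and snoRNP proteins rose after oxaliplatin, but 5 of 15 for RNA polymerase I and its factors, with 1 lower. After cisplatin the counts were 20, 17, 11 and 6, again with 1 polymerase I factor lower. Of all genes tested, 10.7% were called higher after oxaliplatin and 15.7% after cisplatin. The polymerase I counts were above these shares too, though under those of the other roles. Nop56, a core protein of box C/D snoRNPs and a known MYC target, rose from 6036 ± 105 to 8988 ± 147 normalised counts after oxaliplatin (0.57 ± 0.04, DESeq2 adjusted p = 4.24e-42) and to 8258 ± 136 after cisplatin (0.45 ± 0.04, DESeq2 adjusted p = 4.24e-26). Nolc1, a nucleolar chaperone of snoRNPs, was the one named gene of this list that was lower after oxaliplatin than after cisplatin (-0.28 ± 0.04, DESeq2 adjusted p = 3.19e-09), after rises of 0.52 ± 0.04 and 0.79 ± 0.04. Nop2, Ddx21, Mybbp1a, Ftsj3 and Ncl rose after both drugs, by log2 values of 0.35 to 0.77. The gene that fell after oxaliplatin was Ubtf, the upstream binding factor of ribosomal DNA (-0.21 ± 0.05, DESeq2 adjusted p = 3.42e-04), and after cisplatin Taf1b, of the polymerase I promoter complex (-0.59 ± 0.18, DESeq2 adjusted p = 0.00550); both were named after their values were seen.

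A further list held 46 genes that MYC is known to activate outside ribosome production. This list too was chosen with earlier results of these data known, so its counts are no independent test of MYC activity. After oxaliplatin 31 rose and 7 fell, and after cisplatin 34 rose and 1 fell, with medians of 0.22 and 0.25. Of all genes 10.7% rose and 9.5% fell after oxaliplatin, and 15.7% rose and 12.4% fell after cisplatin. Odc1, the rate-limiting enzyme of polyamine synthesis and a classic MYC target, had the same order of groups as Myc. It had 6763 and 6762 normalised counts in control, 9330 and 9293 in oxaliplatin, and 13210 and 13690 in cisplatin libraries. Its log2 fold changes were 0.46 ± 0.04 and 0.99 ± 0.04 (DESeq2 adjusted p = 1.86e-30 and 2.27e-144), and -0.53 ± 0.04 between the drugs (DESeq2 adjusted p = 2.26e-42). Tfrc, the transferrin receptor, rose by 0.74 ± 0.05 and 0.61 ± 0.05 (DESeq2 adjusted p = 7.72e-51 and 3.40e-35). Ldha, of glycolysis, rose after oxaliplatin (0.26 ± 0.03, DESeq2 adjusted p = 1.36e-14) and had -0.07 ± 0.03 after cisplatin (DESeq2 adjusted p = 0.0757). Pa2g4, Hspd1 and Phb2 rose after both drugs, by 0.31 to 0.48.

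The 7 genes of this list that fell after oxaliplatin, seen only after the fit, were Bcat1, Slc7a5, Slc1a5, Slc16a1, Tmem97, Eif4ebp1 and Ptma. Slc7a5 and Slc1a5, amino acid transporters, fell by -0.25 ± 0.05 and -0.35 ± 0.09 after oxaliplatin (DESeq2 adjusted p = 1.81e-06 and 3.82e-04) and rose by 0.35 ± 0.05 and 0.24 ± 0.08 after cisplatin (DESeq2 adjusted p = 4.05e-12 and 0.0182). Between the drugs 8 genes of the list were higher and 17 lower after oxaliplatin, where 8.62% and 11.3% of all genes were. Without oxaliplatin replicate 1 there were 14 such calls in place of 25, without oxaliplatin replicate 2 or cisplatin replicate 2 there were 16, and against control 25 in place of 38 without either oxaliplatin library. The calls over all genes also fell without oxaliplatin replicate 1, from 2977 to 1184 between the drugs and from 3028 to 1213 against control, so the background shares printed here hold for the fit to all 6 libraries.

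Of 11 genes that MYC is known to repress, 10 were tested, and Cdkn1c was at 0 in all libraries. The choice of these genes, too, was made with earlier results of these data known. After oxaliplatin 1 rose and 2 fell, and after cisplatin 5 rose and 2 fell, with medians of -0.02 and 0.35. These were 30% and 70% of those tested, where 20.2% and 28.1% of all genes were called, so that the count after oxaliplatin was near the background. Gas1, a growth arrest gene, fell from 4110 ± 239 to 3233 ± 157 normalised counts after oxaliplatin (-0.35 ± 0.07, DESeq2 adjusted p = 2.41e-06) and to 2435 ± 80.4 after cisplatin (-0.75 ± 0.07, DESeq2 adjusted p = 1.94e-27). Cdkn1b, the cell cycle inhibitor p27, fell by -0.21 ± 0.06 and -0.25 ± 0.06 (DESeq2 adjusted p = 0.00817 and 9.66e-04). The genes that rose were Gadd45b after both drugs (0.62 ± 0.09 and 0.68 ± 0.09, DESeq2 adjusted p = 1.82e-11 and 9.51e-14) and Cdkn1a, Gadd45a, Ndrg1 and Thbs1 after cisplatin, of which Cdkn1a, Gadd45a and Gadd45b are also known to respond to DNA damage. Cdkn1a, the inhibitor p21, went from 130.1 ± 13.8 to 258 ± 6.22 after cisplatin (0.99 ± 0.21, DESeq2 adjusted p = 3.44e-05) and had 106 ± 5.94 after oxaliplatin (-0.29 ± 0.23, DESeq2 adjusted p = 0.384).

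**Figure D3:**
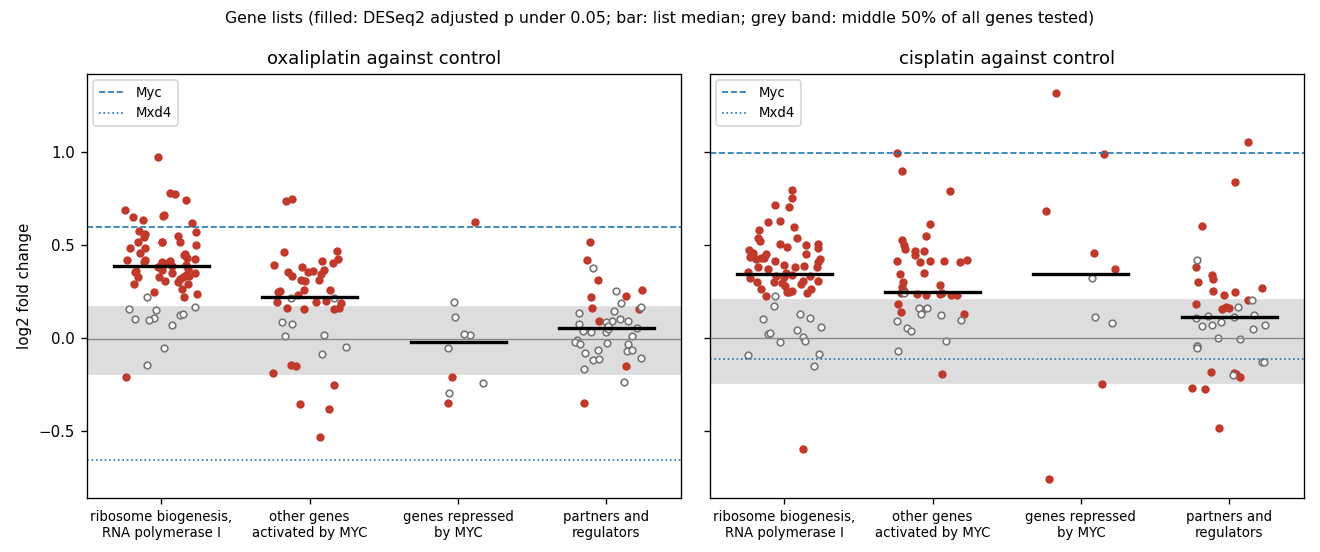
Log2 fold changes (vertical axis) of the tested genes of 4 lists after each drug, with the list median (bar) and, as lines, the values of Myc and Mxd4; the grey band is the middle 50% of all genes tested. The ribosome biogenesis median is 0.39 after oxaliplatin and 0.35 after cisplatin, under the line of Myc, which lies at 0.60 and 0.99.

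The E-box was also counted in the promoters of these lists, a search added after values were seen. It occurred in 13 of 62 matched genes for ribosome biogenesis (21%), in 11 of 40 other genes activated by MYC (27.5%), in 6 of 37 partners and regulators (16.2%) and in 1 of 8 repressed genes (12.5%), where the share over the promoter table was 8.09%. The ribosome biogenesis genes with an E-box had median log2 fold changes of 0.46 after oxaliplatin and 0.34 after cisplatin, and the 49 without one had 0.38 and 0.33. For the other activated genes these medians were 0.23 and 0.23 with the E-box, and 0.25 and 0.34 in the 29 genes without it. These are descriptions of a fixed window, and the difference between genes with and without the letters was not tested. The share of 8.09% is over all genes of the promoter table, expressed here or not, so it is no matched background for these lists. The lists of activated and repressed genes were picked as known MYC targets, so their shares are no independent sign of MYC action.

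The genes whose profile over the 6 libraries came nearest to that of Myc were found by the root mean square difference of centred log2(normalised count + 1) values among 10731 genes with a mean of at least 100. These were Zc3h11a (ENSMUSG00000116275, difference 0.0533), Cfap43 (0.0689) and Erfe (0.0694). The symbol Zc3h11a belongs to a pair of identifiers in the annotation, and the split of reads between them is uncertain. The one named had 586 and 545 normalised counts in control, 893 and 871 in oxaliplatin, and 1036 and 1231 in cisplatin libraries. Cfap43 had 1113 and 1133 normalised counts in control, 1644 and 1544 in oxaliplatin, and 1968 and 2064 in cisplatin libraries. None of the 3 was on a list.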

How the data were processed

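Sequencing libraries of poly(A) RNA (2 control, 2 oxaliplatin, 2 cisplatin) were grouped by their titles. The authors deposited expected counts per gene, unscaled; their processing notes name STAR 2.5.3a, RSEM 1.3.0 and build GRCm38.p6, whereas a different counter appears in the study's methods. Strand use in counting is not given in the sources used here. Symbols, positions and exon lengths came from GENCODE M21 (GRCm38), in which 54409 of 54446 identifiers matched.

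Counts were rounded, and the 14956 genes reaching 10 counts in 2 or more libraries were fitted with DESeq2 (version 1.42.0, R version 4.3.3) to all 6 libraries by group. Size factors were medians of ratios (0.964 to 1.08), Wald tests were two-sided, and P values were adjusted by Benjamini-Hochberg over all genes tested, with a threshold of 0.05 and independent filtering at 0.1. Intervals are 95% Wald intervals. Limits from a count of 0 (3 counts) cover counting error only. The fit was tested on simulated data.

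Alternatives were edgeR (version 4.0.16, quasi-likelihood, TMM), TMM or total-count scaling, no filter or 10 counts in every library, no independent filtering, only the libraries compared, a replicate block and leaving out each library. The members and lists were chosen with earlier results of these data known, and the E-box search was added after values were seen. Named genes were all members, from each other list the 5 genes with the smallest adjusted p after each drug, 5 genes of the wider network (Mga, Mlxip, Mlxipl, Txnip, Arrdc4), and the 3 genes nearest in profile to the member with the smallest adjusted p after cisplatin. Some genes that this rule or the marker list names are not reported here.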

Additional observations from a re-analysis of the deposited data

How the results depend on the processing

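The calls of Myc in all 3 comparisons and of Mxd4 in both with oxaliplatin held under all 15 alternatives run for them, with log2 fold changes of 0.554 to 0.641, 0.942 to 1.03 and -0.437 to -0.354 for Myc, and of -0.67 to -0.636 and -0.558 to -0.506 for Mxd4. The calls of Max and Mxd3 after cisplatin did not, and no called member changed sign.

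Members called after cisplatin numbered 6 in edgeR, which called 6112 of 14956 genes there (4203 in DESeq2). With a replicate block, 7 partners and regulators were called after oxaliplatin and 8 ribosome biogenesis genes between the drugs (29 in edgeR). Same-numbered libraries did not deviate together (Pearson correlations across 10732 genes of 0.0718, -0.0479 and -0.177), so the numbers were not treated as pairs; among members the block ended the call of Mxd3 after cisplatin (DESeq2 adjusted p = 0.101). With the cisplatin numbers exchanged, an alternative chosen after seeing the data, the block gave 1 member after cisplatin, 7, 15 and 8 partners and regulators after oxaliplatin, after cisplatin and between the drugs, and 7 ribosome biogenesis genes between the drugs. Total-count scaling turned the split of partners and regulators between the drugs from 4 higher and 9 lower to 8 higher and 6 lower. The other list counts stayed within 1.5 times. Over all genes, calls after oxaliplatin and between the drugs were 3028 and 2977, against 4618 and 4773 in edgeR and 1958 and 1861 with the replicate block.

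Leaving out each library, where a lone library was assumed to vary like the other groups, gave 1 to 2 members after cisplatin, 5 to 7, 11 to 21 and 3 to 11 partners and regulators in the 3 comparisons (3 without oxaliplatin replicate 1), 5 to 16 ribosome biogenesis genes between the drugs, 25 to 35 and 14 to 23 other activated genes after oxaliplatin and between the drugs, and 2 to 5 repressed genes between the drugs (2 without cisplatin replicate 2). The cause of these shifts beyond the smaller number of libraries was not tested. Over all genes, leaving out a library gave 1213 to 2159 calls after oxaliplatin, 2089 to 3021 after cisplatin and 1184 to 2453 between the drugs. Depth limits what can be said of Mycl and Mycn, with at most 31 and 9 counts in a library.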
